A study of Mus musculus with 6 samples.

Results

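Cells keep a set of enzymes that sense and mend damaged DNA, and 38 genes of this kind were followed in mouse melanoma cells sorted by how much pigment they hold. They were chosen by gene name, with earlier results of these data known. All 38 have a row among the 22740 genes of the count table and passed the filter on low counts, which 11921 genes passed. B16-F3 is a line of the B16 mouse melanoma, and flow cytometry separated its high-pigmented cells (HPC) from its low-pigmented cells (LPC) by the light that intracellular melanin scatters. Each group is 3 libraries of the same line, grown in DMEM with serum, and the labels name no genotype, agent or time. Nothing in the labels ties a replicate to its own culture or sort. The p-values therefore rest on the spread between libraries alone, and this spread may be technical. Fewer cells of a kind and less RNA per cell cannot be told apart in such bulk libraries.

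The damage response works in layers. The kinases Atm and Atr sense breaks and stalled replication forks and pass the signal to Chek1 and Chek2, which hold the cell cycle. Breaks of both strands are then mended by homologous recombination, which copies an intact sister strand and works in S and G2 phase, or by end joining, which works through most of the cycle. The Fanconi anaemia pathway clears crosslinks, mismatch repair corrects copying errors, base excision repair removes oxidised or deaminated bases, and nucleotide excision repair removes bulky lesions such as those made by ultraviolet light. Melanin and the quinones of its synthesis can generate reactive oxygen in pigment cells, so genes of the oxidative stress response were measured beside the repair genes.

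Libraries held 14695822 to 22186743 counts, with 13715 to 14141 genes detected in each. The melanocyte lineage genes Mitf, Sox10, Dct, Tyrp1, Pmel and Mlana together took 31930 to 35952 CPM (counts scaled to a common library total with TMM factors) in every library. All 4 keratinocyte markers had no count. Ptprc, Cd3e and Itgam of the immune markers and Cdh5, Kdr and Emcn of the endothelial markers had none either. The other immune markers summed to 1.31 to 2.98 CPM in HPC and 1.42 to 1.94 CPM in LPC, the endothelial ones to at most 0.305 CPM in a library, and the 5 fibroblast markers to 19.2 to 28.1 CPM in HPC and 17.5 to 34.2 CPM in LPC. Tyr, which encodes the rate-limiting enzyme of melanin synthesis, had 908, 855 and 994 CPM in the 3 HPC libraries against 261, 62.2 and 238 CPM in the 3 LPC libraries, with no overlap. It is 1 of 11 pigment genes listed for comparison. Of these 8 had a positive log2 fold change, HPC over LPC, and 3 a negative one, with a median of 0.26.

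The stretches before the starts of 5 members are shown. Of these, Brca1 and Ung were called by edgeR on all 6 libraries only with the replicate number as a block. The other 3 are examples from the 8 members with E2F letters in their promoter windows. E2F factors switch on genes of S phase, and the letters searched were TTTNNCGC for E2F, CCAAT for the CCAAT box, TGACGTCA for the cAMP response element and TGACNNNGC for the antioxidant response element, on both strands. Capitals mark every match. Sequences are from RefSeq (GRCm38.p6), run 5' to 3' along the gene and stop where the first annotated transcript begins. Brca1 is read from chr11:101551956-101552205 on the minus strand, Ung from chr5:114130185-114130385 on the plus strand, Brca2 from chr5:150522371-150522620 on the plus strand, Bard1 from chr1:71103147-71103222 on the minus strand and Chek2 from chr5:110839733-110839978 on the plus strand.
Brca1: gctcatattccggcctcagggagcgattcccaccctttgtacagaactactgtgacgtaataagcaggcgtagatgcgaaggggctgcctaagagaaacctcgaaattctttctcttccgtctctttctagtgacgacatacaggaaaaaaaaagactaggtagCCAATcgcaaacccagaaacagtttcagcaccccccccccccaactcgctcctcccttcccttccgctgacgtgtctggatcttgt
Ung: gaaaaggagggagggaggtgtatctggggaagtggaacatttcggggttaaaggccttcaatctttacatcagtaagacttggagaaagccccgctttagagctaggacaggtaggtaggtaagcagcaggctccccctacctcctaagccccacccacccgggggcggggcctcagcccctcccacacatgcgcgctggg
Brca2: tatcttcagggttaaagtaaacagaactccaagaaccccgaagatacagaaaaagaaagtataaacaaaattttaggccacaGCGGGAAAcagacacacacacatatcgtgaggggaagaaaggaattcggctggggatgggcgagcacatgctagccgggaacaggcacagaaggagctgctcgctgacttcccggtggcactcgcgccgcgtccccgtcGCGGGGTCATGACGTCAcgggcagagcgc
Bard1: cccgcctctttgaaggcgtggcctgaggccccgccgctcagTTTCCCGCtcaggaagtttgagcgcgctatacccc
Chek2: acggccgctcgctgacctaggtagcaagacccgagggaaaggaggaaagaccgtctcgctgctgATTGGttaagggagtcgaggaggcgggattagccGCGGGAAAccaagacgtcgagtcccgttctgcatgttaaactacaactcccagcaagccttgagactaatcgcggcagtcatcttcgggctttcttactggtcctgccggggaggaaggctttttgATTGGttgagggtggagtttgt

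The stretch of Brca1 holds 1 CCAAT box and no other of these letters, and that of Ung holds none. In Brca2 a cAMP response element and an antioxidant response element abut each other shortly before the start, with an E2F match further upstream. Chek2 holds an E2F match between a pair of CCAAT boxes. Promoter windows of 300 bases, 250 before and 50 after the start, were at hand for 32 of the 38 members. E2F letters were in the windows of 8 members (Bard1, Brca2, Chek2, Clspn, Lig1, Msh6, Rad51c and Xrcc6), and in 9 of the members' 38 windows (23.7%), against 5.16% of all 32817 windows and 8.34% of the 11481 windows of tested genes. The antioxidant letters were in 13.2% of the members' windows, against 12.4% of all windows and 14.3% of those of tested genes. CCAAT was in 55.3%, against 37.4% and 37.9%. The cAMP response element was in 2 of the members' windows (5.26%), against 1.79% and 3.07%. A match describes the letters and does not show that a factor binds.

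No member passed the test between HPC and LPC in the comparison of the groups alone. The test was edgeR's quasi-likelihood test with Benjamini-Hochberg adjustment over 11921 genes, and an adjusted p under 0.05 counted as a call. It called 5 genes, or 0.0419%, all lower in HPC. Tyr did not pass this test either, at a log2 fold change of 2.3 (edgeR adjusted p = 0.172). At an unadjusted p under 0.05 stood 7 of 38 members against 9.37% of all tested genes. Of these members 5 were higher in HPC (Chek2, Brca1, Rad50, Fanci and Lig4), against 5.06% of all genes, and 2 were lower (Ung and Ercc1), against 4.31%. DESeq2 called 1 member, Ung, as lower in HPC. It called 1.88% of all genes, 1.02% as higher and 0.856% as lower.

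Over all tested genes, equally numbered libraries of the 2 groups deviated together. With this number as a block, edgeR called 2 members, where 2.52% of all genes were called. Brca1 was higher in HPC, as were 1.43% of genes, and Ung was lower, as were 1.1%. Of the 11 pigment genes the same fit called 3 as higher, Tyr, Trpm1 and Oca2 (edgeR adjusted p = 0.021, 0.00775 and 0.0465). At an unadjusted p under 0.05 the blocked fit had 9 members higher and 3 lower, against 10.1% and 8.66% of all genes and 18.8% in either direction. DESeq2 with the block called 3 members, Brca1 and Lig4 as higher and Ung as lower, against 4.19% of all genes in either direction, 2.64% higher and 1.55% lower.

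**Figure D1:**
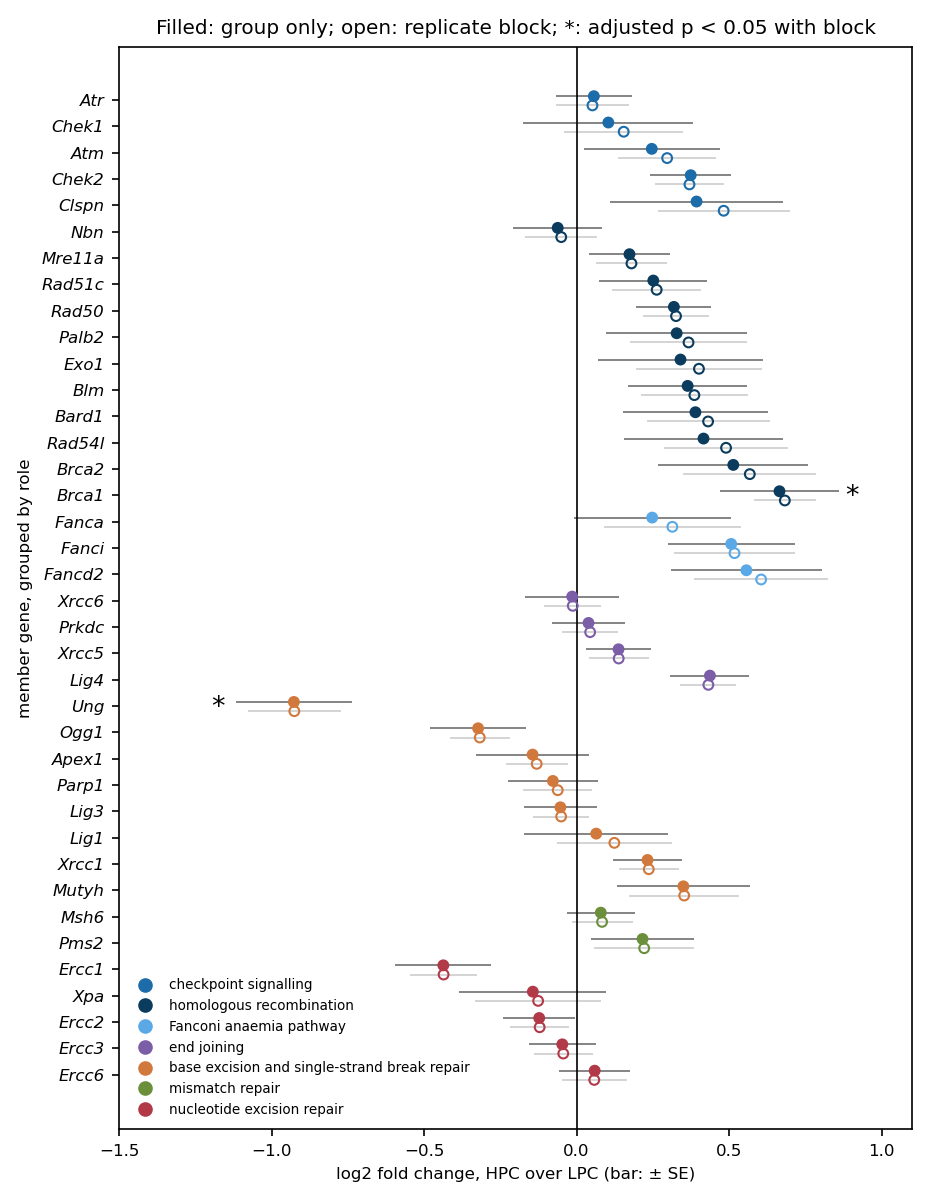
Log2 fold change of each of the 38 members, HPC over LPC, on the x axis with its SE, by role on the y axis; filled points are the fit on groups alone, open points the fit with the replicate block, and asterisks mark an adjusted p under 0.05 with the block. Brca1 (0.68) and Ung (-0.93) carry an asterisk, and 10 of 11 recombination members lie right of 0.

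The homologous recombination genes held the largest positive difference of the members. Brca1, whose protein starts the resection and loading steps of recombination, had 552, 591 and 742 CPM in HPC replicates 1, 2 and 3 and 356, 322 and 511 CPM in LPC replicates 1, 2 and 3. Every HPC library lay above every LPC library, and replicate 3 was the highest of both groups. The means were 629 ± 100 and 396 ± 101 CPM (SD, n = 3 each), 1.59-fold higher in HPC without the block (log2 fold change 0.67, SE 0.20, edgeR adjusted p = 0.32) and 1.61-fold with it (0.68, SE 0.10, edgeR adjusted p = 0.025). DESeq2 gave an adjusted p of 0.053 without the block and 3.3e-06 with it. Brca1 lost its blocked call when pair 2 was left out, with a log2 fold change of 0.585 (edgeR adjusted p = 0.28). That fit called 0 of all tested genes, so the loss is not particular to Brca1. The call stayed without pair 1 or pair 3, each on 1 residual degree of freedom. Brca1 (ENSMUSG00000017146) is a minus-strand gene of chromosome 11 in GRCm38 (start 101488764, end 101551955), and no annotated gene overlaps it. It had the highest count of the 38 members in all 6 libraries, above Parp1 in each.

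Brca2, which loads the strand exchange protein onto single strands, had 68.2, 89.4 and 74.1 CPM in HPC replicates 1, 2 and 3 and 77.9, 44.3 and 40.2 CPM in LPC replicates 1, 2 and 3. LPC replicate 1 stood among the HPC libraries, and LPC replicates 2 and 3 stood well below them (log2 fold change 0.51, SE 0.25, edgeR adjusted p = 0.59, and 0.22 with the block). Rad50, a part of the complex that holds and trims broken ends, had 187, 190 and 204 CPM in HPC and 178, 140 and 147 CPM in LPC. Its groups did not overlap, but the gap to LPC replicate 1 was small (log2 fold change 0.32, SE 0.12, edgeR adjusted p = 0.49). Its partners Mre11a and Nbn had log2 fold changes of 0.17 and -0.06.

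Bard1, the partner of Brca1, Palb2, which links it to Brca2, Rad51c, a strand exchange paralogue, Rad54l, a motor of strand exchange, Exo1, a nuclease, and Blm, a helicase, did not pass either. Their log2 fold changes ran from 0.25 for Rad51c to 0.42 for Rad54l, with SEs of 0.18 to 0.27. In each of these 6 genes LPC replicate 1 was the highest LPC library and LPC replicate 3 the lowest of all 6 libraries. Rad54l, singled out after its values were seen, had 53.4, 55.5 and 53.8 CPM in HPC and 59.0, 37.3 and 25.6 CPM in LPC replicates 1, 2 and 3. Its HPC libraries were nearly level and LPC replicate 1 was above them, whereas in Bard1, Rad51c, Exo1 and Blm HPC replicate 2 was the highest library. In total 10 of the 11 recombination members had a positive difference, with a median log2 fold change of 0.34, against a median of -0.01 and 48.2% positive over all tested genes.

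Among the checkpoint genes Chek2, the kinase that carries the signal of Atm, had 45, 58.4 and 52.8 CPM in HPC and 41.7, 42.3 and 36.6 CPM in LPC. The groups did not overlap, but it did not pass (1.30-fold, log2 fold change 0.37, SE 0.13, edgeR adjusted p = 0.45, and 0.15 with the block). Atm itself had 110, 106 and 94.4 CPM in HPC and 121, 62.1 and 78.9 CPM in LPC, and Atr, its counterpart at stalled forks, 57.4, 73.7 and 67.6 CPM in HPC and 68.3, 61.5 and 61.3 CPM in LPC. For both kinases the groups overlapped, with log2 fold changes of 0.25 and 0.06 (edgeR adjusted p = 0.81 and 0.94). Chek1, the kinase downstream of Atr, had 38.6, 52.4 and 35.1 CPM in HPC and 54.9, 38 and 24.6 CPM in LPC, and the sign of its difference (0.10) turned without LPC replicate 3 (-0.14) or HPC replicate 2 (-0.086). Clspn, the adaptor through which Atr reaches Chek1, had a log2 fold change of 0.39 (SE 0.28).

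The Fanconi members Fanca, of the core complex, and Fancd2 and Fanci, the pair that the complex marks at a crosslink, all had positive differences. Fancd2 had 152, 215 and 179 CPM in HPC and 171, 116 and 84.1 CPM in LPC replicates 1, 2 and 3 (1.47-fold, log2 fold change 0.56, SE 0.25, edgeR adjusted p = 0.55). Fanci had 52.4, 78.1 and 69.8 CPM in HPC and 58.4, 47.2 and 35.4 CPM in LPC (1.42-fold, log2 fold change 0.51, SE 0.21, edgeR adjusted p = 0.51). In both genes the library of replicate 1 was lower in HPC than in LPC, and those of replicates 2 and 3 were higher. The annotated 3' end of Fancd2 lies in Fancd2os and that of Fanci in Polg, both on the opposite strand, and no source used here gives the strand setting of the counting. Of the 38 members 13 have their 3' end inside another gene.

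**Figure D2:**
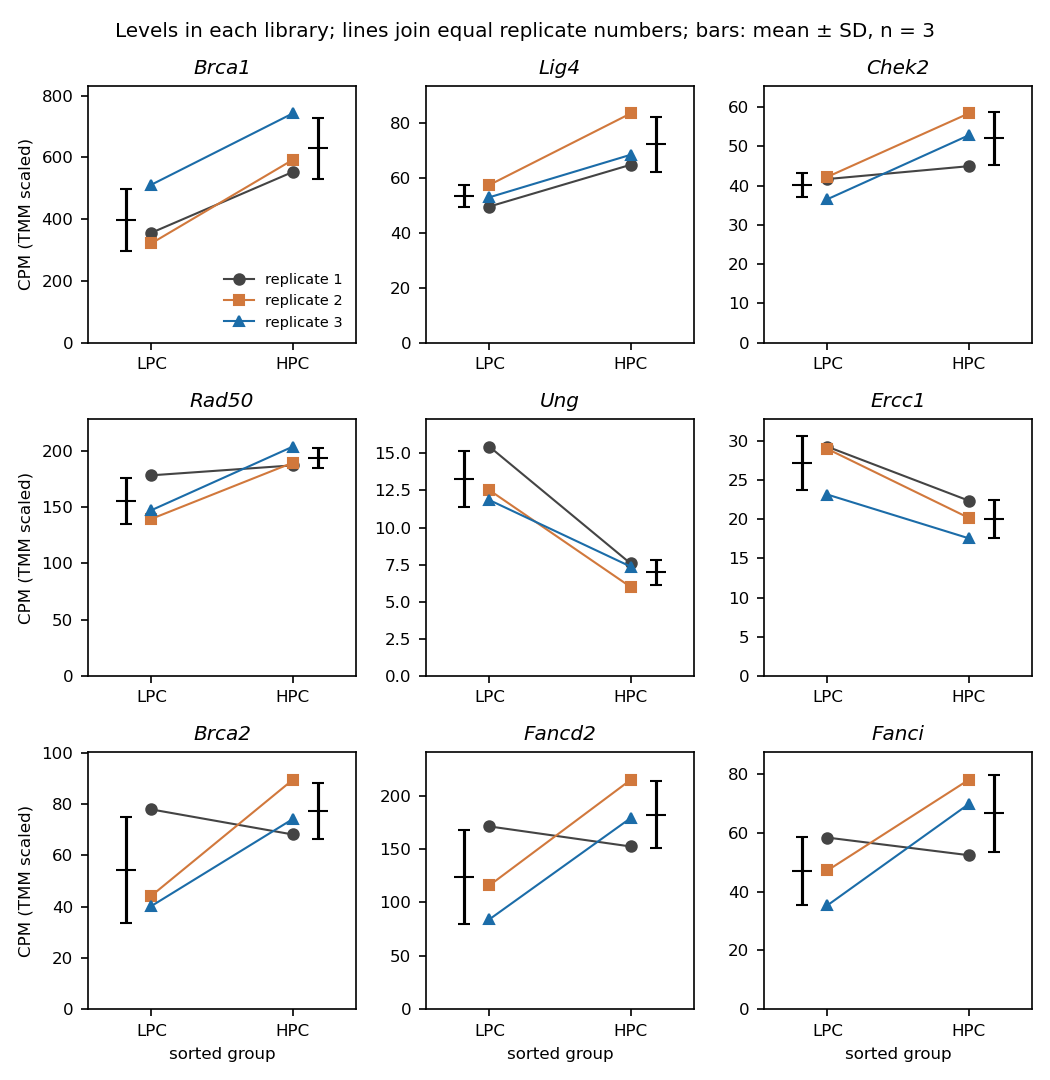
CPM of 9 members (y axis, from 0) in LPC and HPC (x axis), with lines joining libraries of equal replicate number and bars for the mean ± SD of 3 libraries. Brca1, Lig4, Chek2, Rad50, Ung and Ercc1 move the same way in all 3 pairs, while Brca2, Fancd2 and Fanci go down in pair 1 and up in pairs 2 and 3.

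Of the end joining genes, Lig4, the ligase that seals the ends, had 64.8, 83.5 and 68.4 CPM in HPC and 49.6, 57.5 and 53 CPM in LPC. All HPC libraries lay above all LPC libraries (1.35-fold, log2 fold change 0.44, SE 0.13, edgeR adjusted p = 0.32). With the block it stood at an adjusted p of 0.060 in edgeR and passed in DESeq2 (0.0375), where 2.64% of genes were called higher. The subunits of the kinase that holds the ends did not follow Lig4. Prkdc, the catalytic subunit, had 76.2, 68.4 and 73.6 CPM in HPC and 78.7, 61.9 and 71.8 CPM in LPC. Xrcc5 and Xrcc6, the ring that slides onto the end, had log2 fold changes of 0.14 and -0.01. Xrcc5 had 169, 164 and 152 CPM in HPC and 136, 150 and 155 CPM in LPC, overlapping in replicate 3.

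Base excision repair held the largest negative difference. Ung, the glycosylase that removes uracil from DNA, had 7.58, 6.0 and 7.37 CPM in HPC and 15.4, 12.5 and 11.9 CPM in LPC, from 133 to 145 counts in an HPC library and 177 to 237 in an LPC library. The groups stood clear of each other, and all 3 pairs differed by -0.65 to -1.0 on the log2 scale. The means were 6.98 ± 0.859 and 13.3 ± 1.91 CPM, or 1.90-fold lower (log2 fold change -0.93, SE 0.19). The adjusted p of Ung was 0.18 in edgeR without the block and 0.029 with it, and 0.0041 in DESeq2 without the block. Ung lost its blocked call in the same way, at -0.86 on the log2 scale without pair 2 (edgeR adjusted p = 0.31), where no gene was called. It kept the call without pair 1 or pair 3. Ung (ENSMUSG00000029591) is a plus-strand gene of chromosome 5 in GRCm38 (start 114130386, end 114139323), with no overlapping gene.

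Ogg1, the glycosylase for oxidised guanine, had 37.9, 39.6 and 31.1 CPM in HPC and 52.0, 46.5 and 37.4 CPM in LPC. It was lower in HPC within each pair, the groups overlapped, and it did not pass (log2 fold change -0.32, SE 0.16, edgeR adjusted p = 0.61, and 0.15 with the block). Its annotated 3' end lies in Camk1 on the opposite strand. Mutyh, which removes adenine paired with oxidised guanine, differed in the other direction (0.35, SE 0.22), and Apex1, the nuclease that cuts at the emptied site, had a log2 fold change of -0.14. Parp1, which senses single-strand breaks, had 245, 258 and 233 CPM in HPC and 312, 251 and 214 CPM in LPC (log2 fold change -0.08, SE 0.15). The scaffold Xrcc1 did not overlap between groups, with 94.3 to 101 CPM against 73.2 to 87.8 CPM in LPC (log2 fold change 0.23, SE 0.11, edgeR adjusted p = 0.59), and the ligases Lig1 and Lig3 had log2 fold changes of 0.06 and -0.05. Of the 8 members 3 had a positive difference.

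Mismatch repair was measured by Msh6, a part of the mismatch sensor, and Pms2, a part of the nuclease complex it recruits. Msh6 had 129, 138 and 130 CPM in HPC and 139, 120 and 116 CPM in LPC. Pms2 had 16.8, 18.9 and 20.9 CPM in HPC and 19, 15.9 and 13.8 CPM in LPC. Both overlapped between the groups, with log2 fold changes of 0.08 and 0.22. The annotated 3' end of Pms2 lies in Rsph10b on its own strand, so its counts are uncertain.

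Nucleotide excision repair had 1 positive and 4 negative differences. Ercc1, the partner of the nuclease that cuts on one side of the lesion, had 22.4, 20.2 and 17.6 CPM in HPC and 29.3, 29.0 and 23.2 CPM in LPC. The groups did not overlap, at 20.1 ± 2.41 and 27.1 ± 3.45 CPM (log2 fold change -0.44, SE 0.16, or 1.35-fold lower), but it did not pass (edgeR adjusted p = 0.46, and 0.090 with the block). The annotated 3' end of Ercc1 lies in Cd3eap on the opposite strand. Xpa, which verifies the lesion, had 10.7, 8.12 and 9.76 CPM in HPC and 7.56, 10.4 and 13.6 CPM in LPC. Its sign turned without LPC replicate 3 (0.083), the highest library. Ercc3, a helicase that opens the strands, had 46.8, 47.2 and 47.3 CPM in HPC and 53, 48.3 and 44.8 CPM in LPC, Ercc2, the other helicase of that complex, had a log2 fold change of -0.12, and Ercc6, which serves repair of transcribed strands, one of 0.06.

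Across all 38 members, 27 had a positive difference and the median log2 fold change was 0.20. The groups did not overlap in 7 members, against 14.3% of all tested genes. Of these 5 were higher in HPC, against 7.16% of all genes, and 2 were lower, against 7.18%. In 9 members each pair differed in 1 direction, 5 higher and 4 lower in HPC, against 19.6% and 21.3% of all tested genes. When the 5 checkpoint, 11 recombination and 3 Fanconi genes were put together, a grouping made with the values in view, 18 of 19 were positive with a median of 0.34. Of the 13 base and nucleotide excision genes, 4 were positive, with a median of -0.08. No test of the difference between these sets was made.

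**Figure D3:**
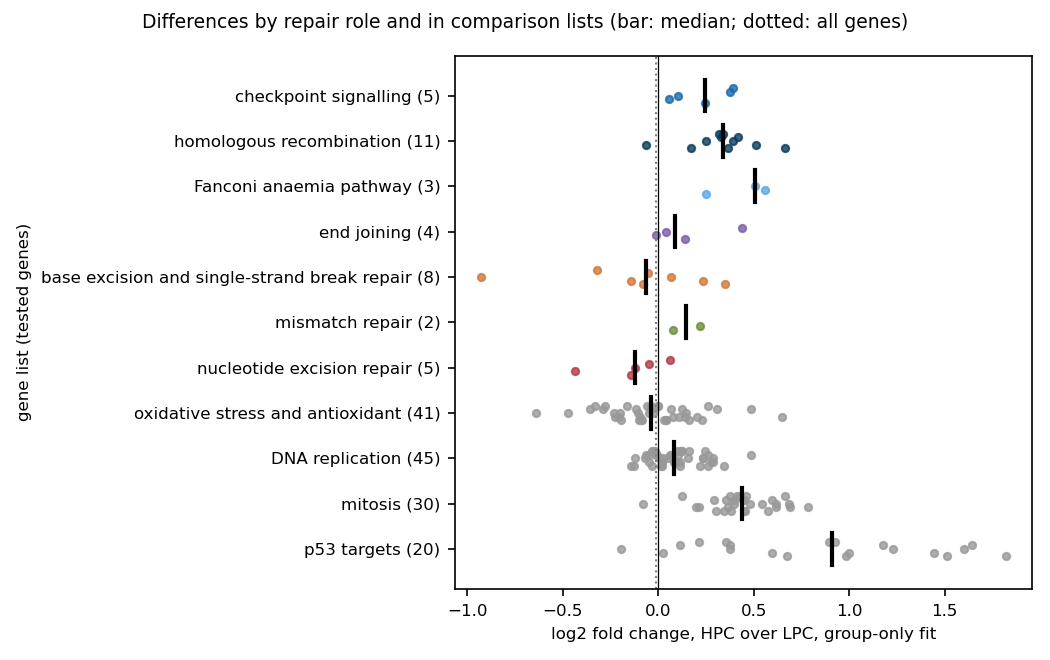
Log2 fold change, HPC over LPC, of each tested gene (points, x axis) by repair role and for 4 comparison lists (y axis), with a bar at each median and a dotted line at the median of all tested genes. The recombination and Fanconi medians, 0.34 and 0.51, lie above those of oxidative stress (-0.04) and DNA replication (0.08) and below that of p53 targets (0.91). The mitosis median, 0.44, lies between the recombination and Fanconi medians.

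In many members the difference between the groups changed sign from pair to pair. In pair 1 only 7 of 38 members were higher in HPC, while 31 were in pair 2 and 30 in pair 3, against 50.2%, 48.4% and 48.6% of all tested genes. The median differences were -0.17, 0.27 and 0.36 for the members, and -0.17, 0.57 and 0.70 for the 19 checkpoint, recombination and Fanconi genes, all of which were higher in HPC in pairs 2 and 3. LPC replicate 1 was the highest LPC library in 31 of 38 members, against 36.1% of all tested genes. The spread between libraries, as the SD of log2(CPM + 0.5), was wider in LPC than in HPC in 33 of 38 members, against 63.1% of all tested genes. Without LPC replicate 1 the median of the 38 members was 0.33, and without LPC replicate 3 it was 0.095. The median of the 19 genes was 0.59 and 0.17 in the same fits.

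**Figure D4:**
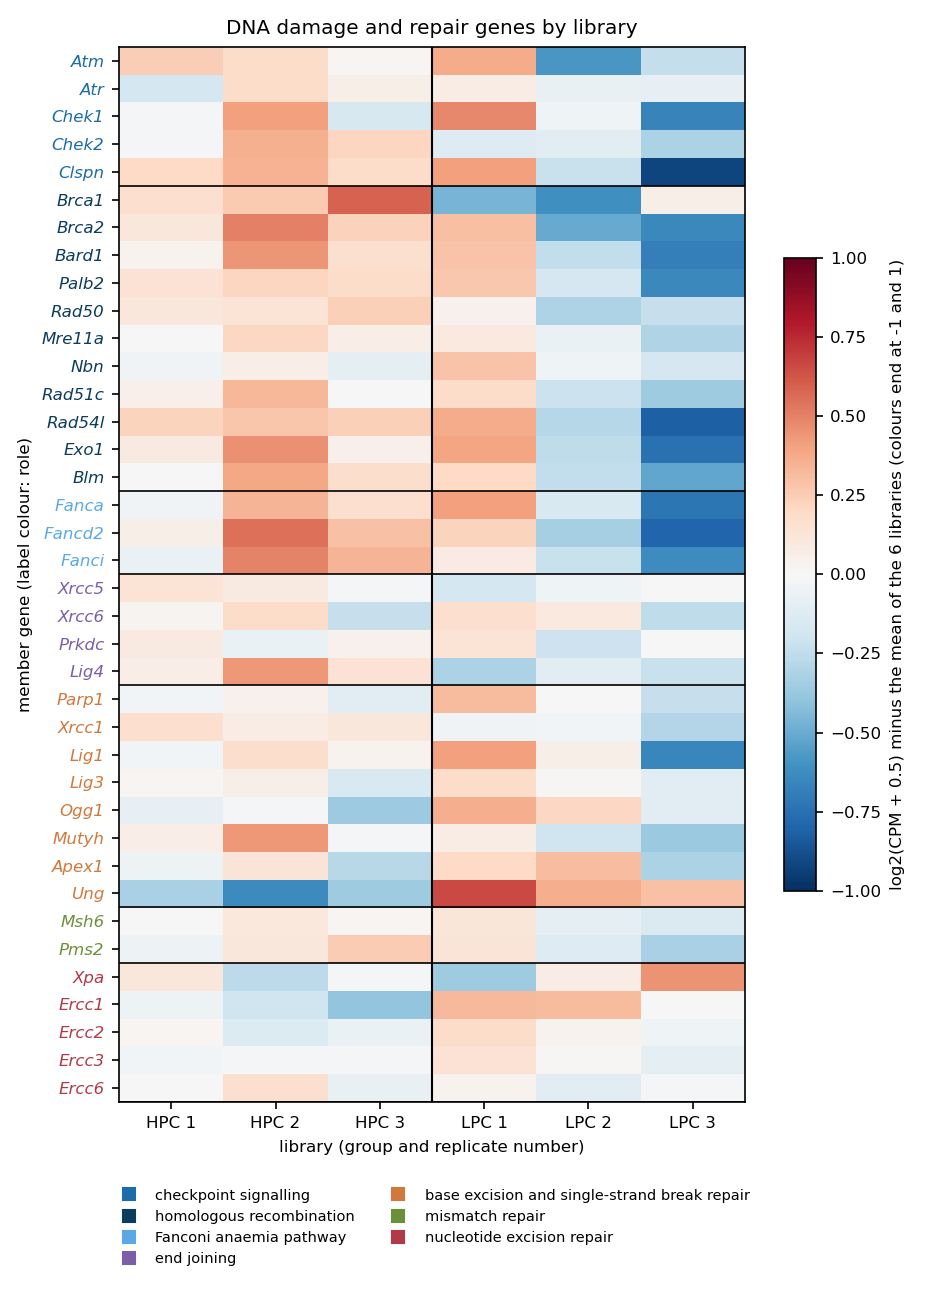
Deviation of log2(CPM + 0.5) from the mean of the 6 libraries (colour, red above and blue below) for each of the 38 members (rows, by role) in each library (columns). Most recombination and Fanconi genes are red in HPC 2 and LPC 1 and blue in LPC 3, and Ung is blue in all HPC and red in all LPC libraries.

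Genes of the cell cycle had a like pattern over libraries, which is given here as values only. The 45 DNA replication genes had pair medians of -0.35, 0.24 and 0.50, and all 45 were higher in LPC replicate 1 than in the other LPC libraries. None was called by edgeR with or without the block, or by DESeq2. In edgeR 0 had an unadjusted p under 0.05 without the block and 1 with it, against 9.37% and 18.8% of all tested genes. The 30 mitosis genes had pair medians of -0.10, 0.64 and 0.89, with 29 of 30 positive and a median log2 fold change of 0.44. None of the mitosis genes was called by edgeR. At an unadjusted p under 0.05 its unblocked fit had 7 higher in HPC, against 5.06% of all tested genes, and its blocked fit 21, against 10.1%. DESeq2 called 0 without the block and 7 as higher with it, against 2.64%. In LPC replicate 3 the 19 checkpoint, recombination and Fanconi genes stood 0.63 below the mean of the 6 libraries, replication genes 0.58 below and mitosis genes 0.77 below. The part of the cell cycle in the repair gene differences was not tested. Brca1 was among the 5 members higher in HPC in all 3 pairs, and Ung among the 4 lower. The blocked fit that called both favours genes whose pairs differ alike. Of the mitosis genes 9 of 30 were also higher in all 3 pairs, against 19.6% of all tested genes. The highest LPC level of Brca1 was in replicate 3.

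**Figure D5:**
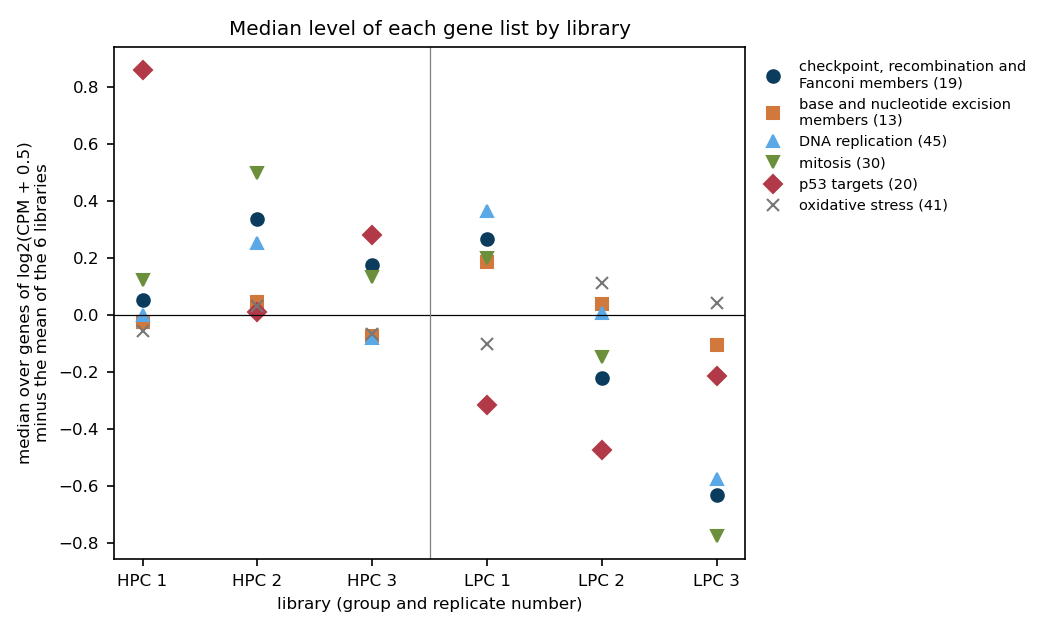
Median log2 deviation from the mean of the 6 libraries (y axis) for 6 gene lists in each library (x axis), with the number of tested genes in brackets. Checkpoint, recombination and Fanconi members lie near replication and mitosis genes in LPC 1 and LPC 3, while p53 targets are highest in HPC 1 and oxidative stress genes stay near 0.

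Genes of the oxidative stress response were set beside the repair genes because pigment synthesis is a source of oxidants. Of 41 tested genes, 17 had a positive difference, with a median of -0.04. An unadjusted p under 0.05 was reached by 4, 2 in each direction, against 9.37% of all tested genes. Hmox1, the haem oxygenase induced by oxidants, had 195, 250 and 202 CPM in HPC and 139, 169 and 154 CPM in LPC, and was called higher with the block, alone among the 41 (1.40-fold, log2 fold change 0.48, SE 0.09, edgeR adjusted p = 0.042, against 0.29 without it). Nqo1, a quinone reductase of the same response, went the other way, with 2.96 ± 0.334 CPM against 4.10 ± 0.258 CPM in LPC (log2 fold change -0.47, edgeR adjusted p = 0.61). Gclm, of glutathione synthesis, had 41.5 ± 8.70 and 35.4 ± 3.97 CPM and overlapped. The list did not share the members' low pair 1, with pair medians of 0.08, -0.08 and -0.15.

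Targets of p53, the factor that damage kinases activate, were mostly higher in HPC. Of 20 tested targets 19 had positive differences with a median of 0.91, and pair medians were 1.03, 0.48 and 0.44. With the block edgeR called 7 as higher (Cdkn1a, Ccng1, Phlda3, Zmat3, Aen, Tnfrsf10b and Gtse1), against 1.43% of all tested genes, and 0 as lower. Without the block edgeR called none. It had 14 higher at an unadjusted p under 0.05, against 5.06% of all tested genes. DESeq2 called 7 as higher without the block, against 1.02%, and 10 with it, against 2.64%. Cdkn1a, the inhibitor that stops the cycle, had 586, 184 and 332 CPM in HPC and 121, 104 and 161 CPM in LPC (edgeR adjusted p = 0.042 with the block, against 0.24 without it). Mdm2, which degrades p53, had 119 ± 39.0 and 79.0 ± 9.28 CPM and did not pass in edgeR with the block (adjusted p = 0.064). DESeq2 with the block called Mdm2 as higher (adjusted p = 0.0053). HPC replicate 1 was the highest library for both genes and also had the most mitochondrial counts (3.21% of its total, where the other libraries had 2.07% to 2.56%), and the part of that share was not tested. The p53 targets stood 0.86 above the mean of the 6 libraries there, where the 19 checkpoint, recombination and Fanconi genes stood 0.05 above it.

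A wider list of 107 other genes of the same pathways had 104 tested genes, of which 55 had a positive difference, with a median of 0.03. With edgeR 0 were called, with or without the block. Without it 5 had an unadjusted p under 0.05, 4 higher and 1 lower, against 9.37% of all tested genes. DESeq2 called Cdc25b, a phosphatase that restarts the cycle after a checkpoint, as higher in HPC (adjusted p = 0.043) and, with the block, Cdc25b and Gen1, a nuclease that resolves recombination joints (adjusted p = 0.0039 and 0.027). Both were named after their values were seen. The other checkpoint and recombination genes had pair medians of -0.27, 0.25 and 0.29 and of -0.25, 0.35 and 0.38, with the low first pair that the members had. Their differences were smaller than those of the members. Of the other checkpoint genes 15 of 21 were positive with a median of 0.08, against 5 of 5 and 0.25 in the members. Of the other recombination genes 14 of 23 were positive with a median of 0.11, against 10 of 11 and 0.34. The other nucleotide excision genes had 5 of 16 positive differences and a median of -0.06.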

How the data were processed

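RNA of sorted B16-F3 cells was made into QuantSeq 3' mRNA-Seq FWD libraries and sequenced on a NextSeq 500, per the labels' protocols. STAR and GRCm38 are named in the submitters' processing notes, and the counter, annotation release, strand setting and any molecular identifiers stay unnamed there. The authors deposited raw counts per gene, whole numbers with no normalization. Reads lie at transcript 3' ends, so counts do not scale with length, and overlapping 3' ends can be miscounted.

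Genes passing filterByExpr (11921) were scaled with TMM and tested with edgeR 4.0.16 in R 4.3.3 (quasi-likelihood F-test, group only, 4 residual degrees of freedom, Benjamini-Hochberg over all tested genes). SEs come from the F statistic. The fits were tested on simulated data, where the share of false calls was above the nominal level, with and without the block. Alternatives were DESeq2 1.42.0, limma-voom (limma 3.58.1), other scalings, no filter, a replicate block and leaving out libraries. Groups share replicate numbers in the labels, and deviations from group means correlated at 0.421, 0.38 and 0.689 for equal numbers, all over the minimum of 0.1, so the blocked fit is reported wherever a call differs. This pairing comes from the data. HPC replicate 2 and LPC replicate 1, of unequal number, also correlated above the minimum, at 0.249. All other unequal pairs were negative. Deviations from a group mean cancel out within the group, so these negative values are in part fixed in advance and do not bear on the pairing. The members and lists were chosen with earlier results of these data known. Members given library by library are those called in edgeR with or without the block, those with an unadjusted p under 0.05, in each role the smallest p and highest level, and a fixed set of 10. Rad54l was added as an example after its values were seen. Positions are from GENCODE M21, in which all 38 members were found. Library deviations use log2(CPM + 0.5).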

Additional observations from a re-analysis of the deposited data

How the results depend on the processing

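The median log2 fold change of the 38 members stayed positive under every alternative run, from 0.0954 without LPC replicate 3 to 0.421 with the replicate block and without replicate 1. Without the block no member passed in edgeR under RLE, upper quartile or library size scaling, with no filter, in limma-voom or in any fit without a library. The counts of called genes, members, other pathway genes and comparison list genes were 5, 0, 0 and 0 in the edgeR fit on groups, 224, 1, 1 and 9 with DESeq2, 301, 2, 0 and 11 with the replicate block, 500, 3, 2 and 21 with DESeq2 with the replicate block, and 298, 2, 0 and 11 with limma-voom with the replicate block. With no filter 28 genes were called. Leaving out 1 library without the block gave 0 to 43 called genes, 0 members, 0 other pathway genes and 0 to 1 comparison genes. With the block and without a pair, on 1 residual degree of freedom, the counts ran from 0 to 2947 genes (196 without the pair numbered 3), 0 to 24 members, 0 to 38 other pathway genes and 0 to 97 comparison genes, each highest without the pair numbered 1 and lowest without the pair numbered 2, so these counts carry little weight. The cause was not tested.

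When libraries were left out, signs turned for Atr, Chek1, Ercc3, Parp1, Prkdc and Xpa, and for Nbn, Xrcc6, Lig1, Lig3 and Ercc6 among the members given by range. Without the block the log2 fold change ran from -0.0271 to 0.157 for Atr, -0.139 to 0.426 for Chek1, -0.103 to 0.0189 for Ercc3, -0.198 to 0.0783 for Parp1, -0.0387 to 0.123 for Prkdc and -0.329 to 0.0826 for Xpa. With the block and without a pair it ran from -0.0555 to 0.215 for Atr, -0.0165 (-0.00693 without replicate 2) to 0.499 for Chek1, -0.104 to 0.0343 for Ercc3, -0.152 to 0.0924 for Parp1, -0.00585 to 0.102 for Prkdc and -0.403 to 0.0627 for Xpa. Brca1 and Ung kept their sign in every fit run, with adjusted p from 3.3e-06 to 0.36 and from 0.00342 to 0.18 over the fits on all 6 libraries. Members had at least 89 counts in each library, the fewest being those of Mutyh in LPC replicate 3.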
